A study of Mus musculus with 4 samples.

Results

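The granin and dense-core vesicle genes Chga, Chgb, Scg2, Scg3, Scg5, Vgf, Ptprn, Ptprn2, Pcsk1 and Pcsk2 are 10 of the 21938 protein-coding genes on the mouse autosomes and sex chromosomes in GENCODE M21. They were listed by their function in regulated secretion and as known targets of the repressor REST, so the REST-type elements counted at them follow in part from that choice. The measurement was chromatin immunoprecipitation sequencing (ChIP-seq) of Eya1 in kidneys of E13.5 (embryonic day) mice that carry an HA-FLAG tag knocked in at Eya1. Each ChIP assay used 80 kidneys and anti-FLAG beads, so the chromatin was pooled over whole organs and many embryos. The profiles reflect the cells that express the tagged Eya1, which the lists do not resolve by cell type. The series holds 4 samples, of which 2 are Eya1 ChIP replicates, 1 is an input control and 1 is an IgG control. The values analysed here are the peak lists of the 2 ChIP replicates. No values of the input or IgG sample were analysed here.

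Each list gives only the chromosome, start and end of every peak in the mm10 build. Replicate 1 covers 5012 kb, with 4041 of its peaks (94.5%) within 1 kb of a TSS, and replicate 2 covers 1025 kb, with 3534 (84.6%) there. Peaks were thus much wider in replicate 1, with a median width of 1069 bp against 188 bp in replicate 2. Read depth, peak height and the error of a single peak are unknown, and a gene without a peak may still have signal under the calling threshold. The lists hold no expression values, so the tissue label could not be checked against marker genes. No test was run on these lists, and counts over the 10 genes are set beside the same count over all protein-coding genes. With 2 replicates, the values of both are given throughout.

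Dense-core vesicles store peptide hormones and neuropeptides in neurons and endocrine cells and release them when calcium rises. Granins are the acidic proteins that aggregate in the trans-Golgi and fill these vesicles, prohormone convertases cut the stored precursors, and the receptor-type phosphatase proteins IA-2 and IA-2beta span the vesicle membrane. Many of these genes are textbook targets of REST, the repressor that keeps neuroendocrine genes silent in other cells. REST binds an element called RE1, made of a left and a right stretch, called boxes here, with a short gap between them, and it is also known to bind the boxes at other spacings. Eya1 is a phosphatase and transcriptional coactivator with no DNA-binding domain of its own. REST itself was not measured in these lists.

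RE1 was searched here in the mm10 genome on both strands as a left box of 9 bases, a gap of 2 bases and a right box of 6 bases, 17 bases in all, with degenerate positions allowed. A mismatch is a base outside that pattern. The most frequent boxes among mismatch-free elements under a peak outside the gene windows used here were TTCAGCACC on the left (187 of 214 elements) and GGACAG on the right (161 of 214). The sequences below are the elements under Eya1 peaks at the 10 genes that had at most 1 mismatch, or had these 2 boxes at another gap. They are shown because they carry the main pattern of these loci. They come from the RefSeq copy of the GRCm38 (mm10) genome, are written 5′ to 3′ on the strand of the element, and show both boxes in capitals with the gap and 3 or 5 flanking bases in lower case. Positions refer to the boxes with their gap.
Chga, intron, chr12:102555238-102555254, no mismatch: gaggaTTCAGCACCtcGGACAGcacca
Chgb, intron, chr2:132781794-132781810, no mismatch: gggatTTCAGCACCccGGACAGctcct
Ptprn, intron, chr1:75263159-75263175, no mismatch: ctaggTTCAGAACCatGGACAGcgcca
Chga, upstream, chr12:102550694-102550710, 1 mismatch: agtgtTTCAGGACCacGGACAGcgaca
Vgf, UTR, chr5:137030278-137030294, 1 mismatch: ccggcTTCAGCACGctGGACAGcgccc
Ptprn, upstream, chr1:75277380-75277396, 1 mismatch: ccctcCTCAGCACCacGGACAGctcca
Scg2, UTR, chr1:79440025-79440039, gap of 0 bases: gccgtTTCAGCACCGGACAGctcct
Ptprn2, UTR, chr12:116485727-116485741, gap of 0 bases: cgagcTTCAGCACCGGACAGcgcca
Pcsk1, upstream, chr13:75088779-75088800, gap of 7 bases: ataTTCAGCACCgatgtgtGGACAGcga
Scg3, UTR, chr9:75683947-75683969, gap of 8 bases: aacTTCAGCACCcgcggggcGGACAGcgc

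All 10 printed elements end in GGACAG, which 4 of them do by the choice of boxes. The Scg2 and Ptprn2 elements join the same 2 boxes with no base between them, so their 15 central letters are identical while the genes lie on different chromosomes. At Scg3 and Pcsk1 the same 2 boxes stand 8 and 7 bases apart. None of the 10 lies in sequence soft-masked as repeat.

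Peaks near a transcription start site (TSS) were the rule at these genes. A peak within 1 kb of an annotated TSS of the gene was present at 7 of the 10 in replicate 1, where 20.3% of all protein-coding genes had one. The 7 were Chga, Chgb, Scg2, Scg3, Vgf, Ptprn and Ptprn2. Replicate 2 had such a peak at the same 7 and also at Pcsk1 and Pcsk2, making 9 of 10 against 14.7% of all protein-coding genes. The count was 9 in either list against a background of 23.5%, and 7 in both lists against 11.5%. Scg5 was the one gene with no promoter peak in either list.

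**Figure D1:**
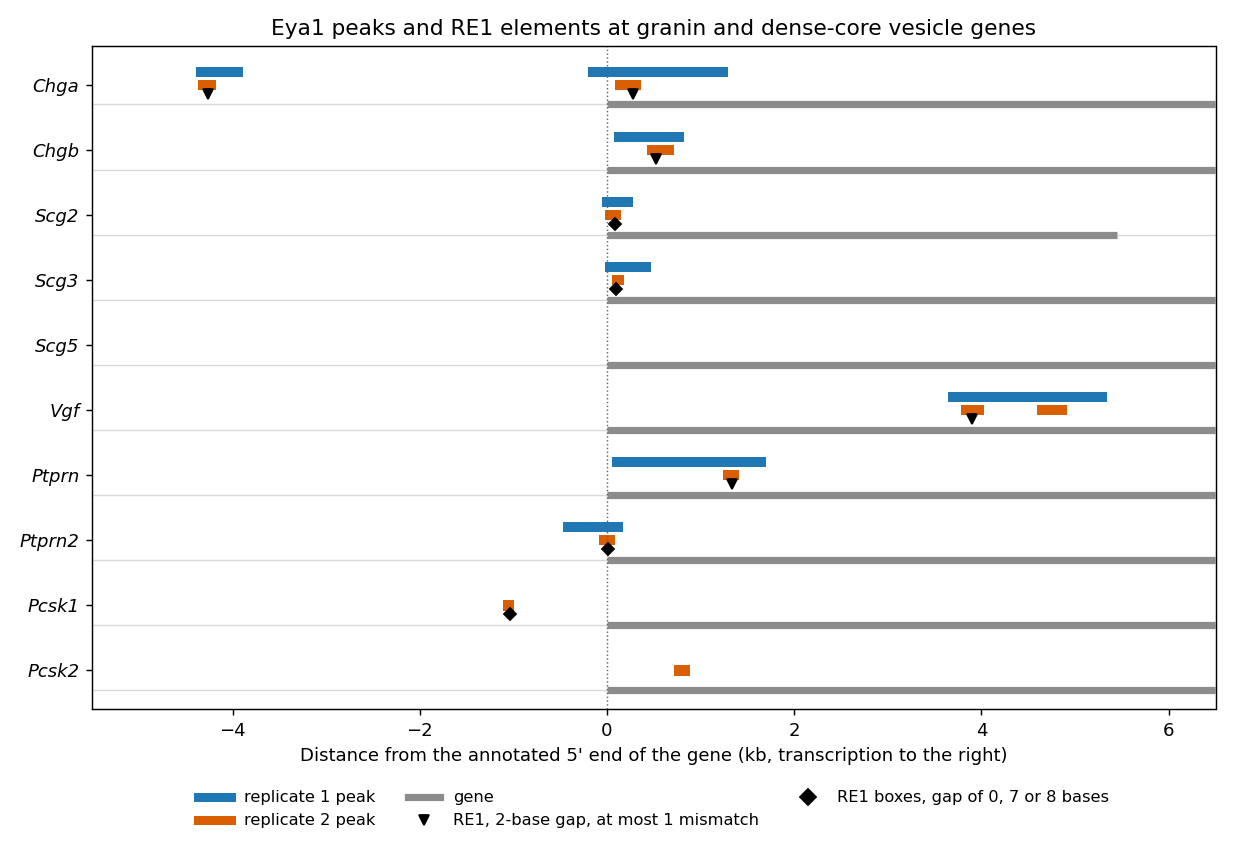
Eya1 peaks and RE1 elements on both sides of the annotated 5′ end of each gene, with transcription drawn to the right. Blue bars are replicate 1 peaks, orange bars replicate 2 peaks, grey bars the gene, triangles RE1 elements with at most 1 mismatch and diamonds the boxes at a gap of 0, 7 or 8 bases. Narrow replicate 2 peaks lie inside wide replicate 1 peaks wherever both are drawn, and a marker lies under the replicate 2 peak nearest the 5′ end of every gene with one except Pcsk2.

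A peak overlapped the gene at 8 of the 10 in either list, against 23.8% of protein-coding genes, and after peaks within 1 kb of an own TSS were left out the count was 0. Few genes have such a peak at all, 1.97% of protein-coding genes. Ptprn2 spans 791.0 kb and Pcsk2 spans 270.0 kb, and neither had an Eya1 peak away from its TSS, while 11.0% of the 662 genes at least as long as Pcsk2 had one. In the gene or within 50 kb of it, all 10 genes had a peak in either list, against 48.5% of protein-coding genes. Replicate 1 listed 12 peaks in these windows, of which 7 were own-promoter peaks and 4 were nearest to the TSS of another gene. Replicate 2 listed 13, of which 10 were own-promoter peaks and 2 were nearest to another gene.

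Chga encodes chromogranin A, a core granin that drives granule formation. Its replicate 1 promoter peak ran over chr12:102554770-102556257, 1488 bp from before the TSS into the gene. The replicate 2 peak, chr12:102555056-102555334, was 279 bp wide and lay inside it. The mismatch-free element stood in the intron 277 bp downstream of the 5′ end and was covered in both replicates. A further pair of peaks lay upstream, with midpoints at -4.14 kb in replicate 1 (502 bp) and -4.27 kb in replicate 2 (197 bp). Among the peaks in the gene or within 50 kb, these were the only ones in either list nearest to one of the 10 genes without lying within 1 kb of its TSS. The upstream element with 1 mismatch lay 5.0 bp from the midpoint of the replicate 2 peak there. Chga was thus the only one of the 10 genes with 2 separate RE1 peaks listed in both replicates.

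Chgb encodes chromogranin B, the close partner of chromogranin A in the granule core. The replicate 1 peak at chr2:132781352-132782105 measured 754 bp and the replicate 2 peak at chr2:132781710-132781990 measured 281 bp. Both covered the mismatch-free element 524 bp downstream of the 5′ end, in an intron. The wider replicate 1 peak also held a second match with 2 mismatches.

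Scg2 encodes secretogranin II, the precursor of secretoneurin, and Scg3 encodes secretogranin III, which binds chromogranin A and the cholesterol-rich vesicle membrane. The peaks over Scg2 were among the narrowest of replicate 1, 329 bp at chr1:79439845-79440173, wider than only 2.9% of the peaks in that list. The replicate 2 peak at Scg2 covered 166 bp at chr1:79439972-79440137. The Scg3 peaks measured 501 bp at chr9:75683582-75684082 and 121 bp at chr9:75683879-75683999. Neither gene had RE1 at its standard gap with at most 2 mismatches in its promoter peaks. Both had the mismatch-free boxes at another gap, 88 bp from the 5′ end on the strand opposite to Scg2 and 98 bp from it on the strand of Scg3. At Scg2 the left box also stood 19 bases from a looser right box, a match that shares its left box with the first. A second pair of peaks in the Scg3 window, 1304 bp in replicate 1 and 256 bp in replicate 2, lay at the TSS of Lysmd2 and held no RE1 with at most 2 mismatches.

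Scg5 encodes 7B2, the chaperone that carries proPC2 to the vesicle and holds it inactive. The only peak in its window was in replicate 1, 953 bp at chr2:113847833-113848785, and it lay over the TSS of Arhgap11a, at -19.19 kb from Scg5. It held no RE1 with at most 2 mismatches. The Scg5 window itself held no element with 0 or 1 mismatch and no mismatch-free boxes at any gap from 0 to 20 bases.

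Vgf encodes a neurotrophin-inducible precursor of secreted peptides. Replicate 1 listed a single peak of 1690 bp at chr5:137030039-137031728, the widest promoter peak of the 10 genes. Replicate 2 split the same stretch into a peak of 241 bp at chr5:137030178-137030418 and a peak of 314 bp at chr5:137030989-137031302. The element with 1 mismatch lay 12 bp from the midpoint of the former. The latter, over a coding exon, held a match with 2 mismatches. These peaks stood 3.91 kb and 4.75 kb from the annotated 5′ end, next to downstream TSSs of shorter transcripts, so Vgf has a promoter peak only when all annotated transcripts are used. A replicate 1 peak of 1569 bp at -38.99 kb lay over the TSS of Znhit1 and held no element with at most 2 mismatches.

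Ptprn and Ptprn2 encode IA-2 and IA-2beta, catalytically inactive members of the receptor tyrosine phosphatase family and autoantigens of type 1 diabetes. At Ptprn, replicate 1 listed 1649 bp at chr1:75262801-75264449 and replicate 2 listed 171 bp at chr1:75263090-75263260, wholly in an intron. The replicate 2 interval is shown whole, on the strand of the gene and with the RE1 boxes in capitals, because it placed the element almost at its center, 8.0 bp from the midpoint.
Ptprn, chr1:75263090-75263260: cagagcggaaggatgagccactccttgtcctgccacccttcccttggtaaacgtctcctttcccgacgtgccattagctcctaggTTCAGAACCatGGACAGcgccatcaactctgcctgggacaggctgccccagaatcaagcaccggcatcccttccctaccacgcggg

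A second Ptprn element, with 1 mismatch, lay under a peak of replicate 2 only. That peak covered 142 bp at chr1:75277308-75277449, at -12.88 kb from Ptprn and 835 bp from the TSS of its neighbor Resp18, which encodes a luminal dense-core vesicle protein related to the Ptprn lumenal domain. Resp18 was not among the 10 genes. At Ptprn2 the peaks straddled the 5′ end, 632 bp at chr12:116485255-116485886 and 176 bp at chr12:116485634-116485809. Its joined boxes were centered in the first exon, 14 bp from the 5′ end. The standard search counted this stretch as RE1 with 2 mismatches because the 2 matches share the left box and overlap.

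Pcsk1 and Pcsk2 encode PC1/3 and PC2, the convertases that cut prohormones inside the vesicle. Both had a promoter peak in replicate 2 alone. The Pcsk1 peak was 120 bp wide and lay 989 bp from the TSS, close to the limit of 1 kb. The Pcsk2 peak was 166 bp wide, lay 605 bp from the nearest TSS in an intron, and held neither RE1 with at most 2 mismatches nor the mismatch-free boxes at another gap. Its closest match had 3 mismatches, again with the right box GGACAG, and lay 4.5 bp from the peak midpoint. Matches this loose or closer are frequent. RE1 with at most 3 mismatches was held by 34.4% of all replicate 2 peaks and by 25.8% of its promoter-proximal peaks. Both intervals are shown whole on the forward strand, which is the strand of both genes. Capitals mark the boxes at Pcsk1 and the match with 3 mismatches at Pcsk2, and both matches are on the reverse strand.
Pcsk1, chr13:75088718-75088837: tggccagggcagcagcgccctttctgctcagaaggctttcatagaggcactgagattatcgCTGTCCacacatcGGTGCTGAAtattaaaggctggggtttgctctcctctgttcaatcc
Pcsk2, chr2:143546876-143547041: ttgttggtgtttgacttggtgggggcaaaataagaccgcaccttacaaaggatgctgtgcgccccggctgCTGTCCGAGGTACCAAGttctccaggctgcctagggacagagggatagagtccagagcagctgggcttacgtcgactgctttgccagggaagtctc

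An RE1 peak, meaning a peak in the gene or within 50 kb that held RE1 with at most 2 mismatches, was present at 5 of the 10 genes in replicate 1 against 9.62% of protein-coding genes. The same 5 genes, Chga, Chgb, Vgf, Ptprn and Ptprn2, had one in replicate 2, against 6.43%. The background was 12.2% for a peak of either list and 3.81% for a peak in both. With the mismatch-free boxes at a gap of 0 to 20 bases counted as well, Scg2, Scg3 and Pcsk1 joined and the count was 8 of 10, against 12.7% of protein-coding genes in either list. That range of gaps was widened from 3 to 9 bases after the loci had been seen. With gaps of 3 to 9 bases the count was 7, against 12.5%. Scg5 and Pcsk2 were the 2 genes left without either motif under a peak.

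Among all RE1 matches around the genes, the Eya1 peaks covered a small subset. With at most 2 mismatches, the limit used above for an RE1 peak, the windows held 201 elements, and 9 lay under a peak of either list. Coverage was sparse across the genome as well. There, 0.434% of the 174634 elements with exactly 2 mismatches and 2.67% of the 12998 with exactly 1 lay under a peak of either list. The counts that follow use the closer matches, those with at most 1 mismatch. The windows of the 10 genes held 3 mismatch-free elements, at Chga, Chgb and Ptprn, and all 3 were covered in both replicates. Across the genome 13.6% of the 708 mismatch-free elements lay under a replicate 1 peak and 30.1% under a replicate 2 peak, or 30.6% under either. With 1 mismatch allowed the windows held 19 elements, of which 5 lay under a replicate 1 peak and 6 under a replicate 2 peak. The 6 include all 5 of replicate 1. The genome share for elements with at most 1 mismatch was 4.11% in either list. The 13 uncovered elements included 5 inside the introns of Ptprn2.

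Covered and uncovered elements of these windows differed in the right box. Of the 19 elements with at most 1 mismatch, 7 had the right box GGACAG, and 6 of the 7 were covered. The other 12 had a different right box and 0 were covered. The 7 include the 3 mismatch-free elements, while all 12 had 1 mismatch. Among elements with 1 mismatch, 3 of 4 with GGACAG were covered, against 0 of 12 with another right box. The exception with GGACAG was an element at -9471 bp from Pcsk2, printed here with the boxes in capitals for comparison with the covered ones.
Pcsk2, upstream, chr2:143536677-143536693, 1 mismatch, no peak: ggatcGTCAGCACCacGGACAGagctc

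It is 1 mismatch from the pattern, as are 3 of the covered elements. In the rest of the genome 22.8% of the 1703 elements with GGACAG and at most 1 mismatch lay under a peak of either list, against 1.42% of the 11984 with another right box. By mismatch number the shares were 58.1% against 12.4% with no mismatch and 15.9% against 1.01% with 1. GGACAG was picked as the most frequent right box under peaks outside the windows, so the genome shares describe that choice and the member elements did not enter it.

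Joined and widely spaced boxes were rarer under peaks in general. Across the genome, mismatch-free boxes lay under a peak of either list at 1.19% of 420 occurrences with a gap of 0 bases, 2.32% of 474 with a gap of 7 and 5.03% of 398 with a gap of 8. The windows of the 10 genes held 2, 1 and 1 such occurrences, and all 4 were covered. These gaps are those of the printed elements, which were chosen as lying under peaks, so this coverage follows in part from that choice. The genome shares include the same occurrences, which were 2 of the 5 covered at a gap of 0 bases. At all gaps other than 2 the windows held 16 occurrences, of which 5 were covered and 11 were not. Across the genome 111 of 8377 such occurrences (1.33%) were covered in either list. The fifth covered one in the windows was the match at Scg2 with a gap of 19, which shares its left box with the joined boxes there. With the most frequent boxes alone, TTCAGCACC followed by GGACAG, the genome held 6 occurrences with no gap. Of these, 3 were under a peak, and Scg2 and Ptprn2 supplied 2 of the 3. The same boxes were covered in 10 of 23 cases at a gap of 7, in 17 of 38 at a gap of 8, in 141 of 195 at the standard gap of 2, and in 0 of 34 at gaps of 3 to 6 bases. They were covered in 6 of 19 cases at a gap of 1, in 19 of 457 at a gap of 9, where they were most frequent, and in 8 of 182 at gaps of 10 to 20. The standard-gap share is set in part by how the boxes were picked.

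**Figure D2:**
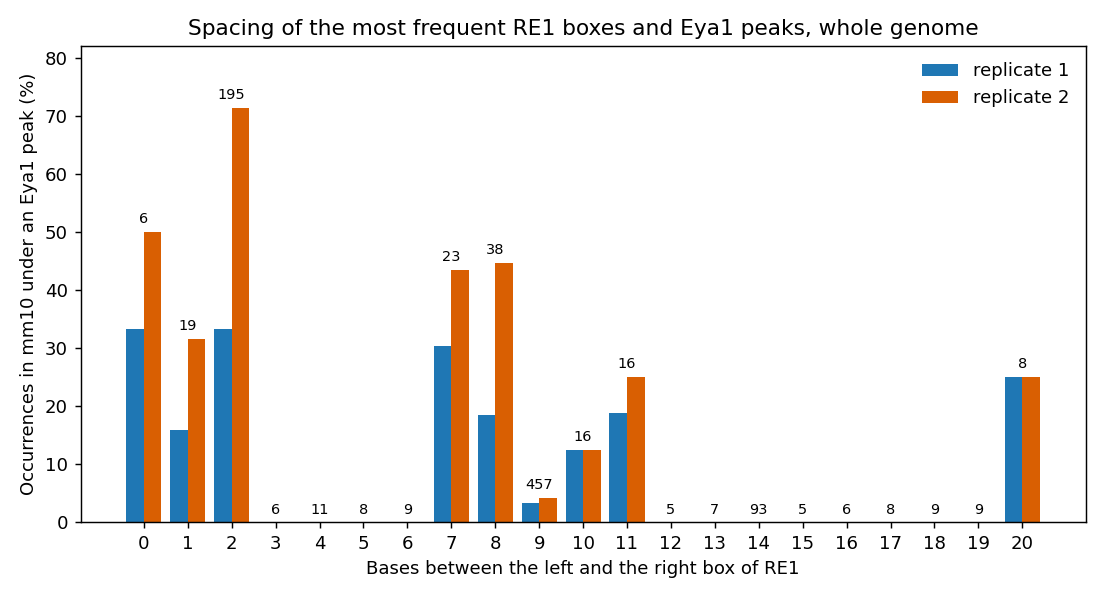
Share of all mm10 occurrences of TTCAGCACC followed by GGACAG that lay under an Eya1 peak, by the number of bases between the boxes, in percent from 0. Blue bars are replicate 1, orange bars replicate 2, and the number above each pair is the number of occurrences. Replicate 2 coverage reached 50.0% with no gap (6 occurrences), 71.3% at a gap of 2, 43.5% at 7 and 44.7% at 8, it was 4.16% at 9, and no occurrence at gaps of 3 to 6 was covered.

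In the RefSeq promoters, windows of 300 bases across the annotated start, 2.84% of 32851 held RE1 with at most 2 mismatches and 0.161% held the mismatch-free boxes at another gap of 0 to 20 bases. The table held 9 of the 10 genes. Scg2 and Ptprn2 had both kinds of match in their promoter windows. At Scg2, however, no RE1 with at most 2 mismatches lay under a peak, and at Ptprn2 the overlapping matches near the 5′ end share the left box. The windows of the other 7 held neither.

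Peak width separated the replicates more than the genes. The promoter peaks of the 10 genes measured 329 to 1690 bp in replicate 1, with a median of 754 bp over 7 peaks, and 120 to 314 bp in replicate 2, with a median of 173.5 bp over 10 peaks. No replicate 2 peak was as wide as the narrowest replicate 1 peak. All promoter-proximal peaks had medians of 1099 bp in replicate 1 and 199 bp in replicate 2, and the peaks of the 10 genes lay below these medians in 4 of 7 and 6 of 10 cases. Within its own list the median peak of the 10 genes stood at the 23.4th percentile of width in replicate 1 and at the 43.1st in replicate 2. The windows held 10 overlapping pairs, and in all 10 the replicate 2 peak lay inside the replicate 1 peak. The ratio of widths ran from 1.98 at Scg2 to 9.64 at Ptprn. The mean width of the Scg2 pair was 248 ± 115 bp (SD, n = 2) and that of the Ptprn pair 910 ± 1050 bp (SD, n = 2), so a mean over replicates says little about either peak.

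**Figure D3:**
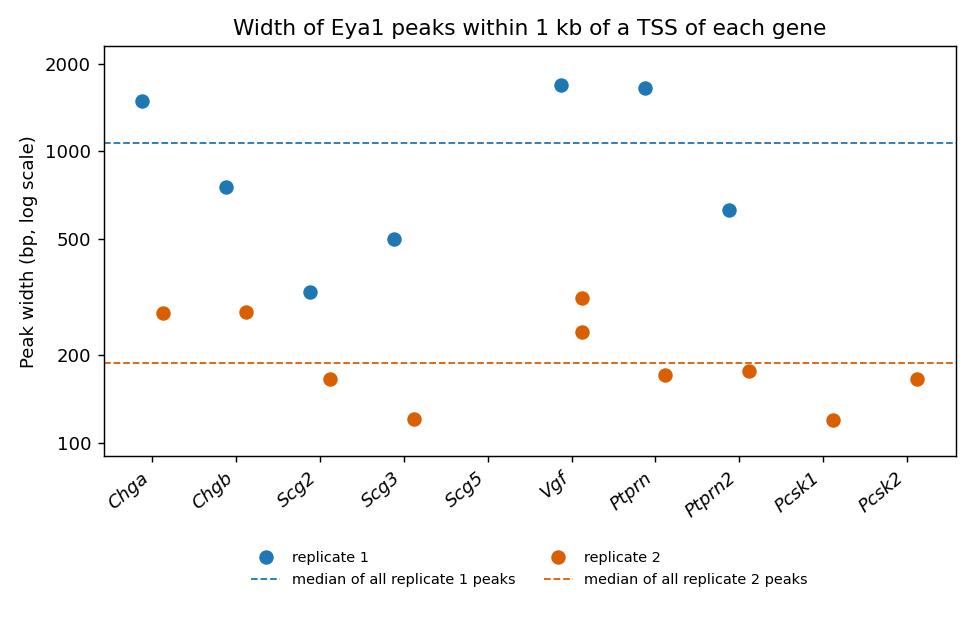
Width in bp, on a log scale, of each Eya1 peak within 1 kb of a TSS of the 10 genes. Points are single peaks, blue for replicate 1 and orange for replicate 2, and the dashed lines are the medians of all peaks of each list, 1069 and 188 bp. Every replicate 1 point lies above every replicate 2 point, and Scg5 has no point.

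The elements stood close to the midpoints of the replicate 2 peaks. The 6 covered elements with at most 1 mismatch lay 5.0 to 51.0 bp from the replicate 2 midpoint with a median of 10.75 bp, and 4 of 6 were within 25 bp. In the wider replicate 1 peaks the distance was 73.5 to 597.5 bp with a median of 267.5 bp, and 0 of 5 were within 25 bp. Elsewhere in the genome 77.4% of 526 such elements under replicate 2 peaks and 16.5% of 261 under replicate 1 peaks were within 25 bp. The 2 farthest in replicate 2 were the intronic elements of Chga and Chgb, at 51.0 and 48.0 bp, in the widest of the replicate 2 peaks with an element of this kind. The boxes at gaps of 0, 7 and 8 bases lay 12 to 22.5 bp from the replicate 2 midpoint. A peak's own width bounds this distance, so the values are not comparable between the lists.

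**Figure D4:**
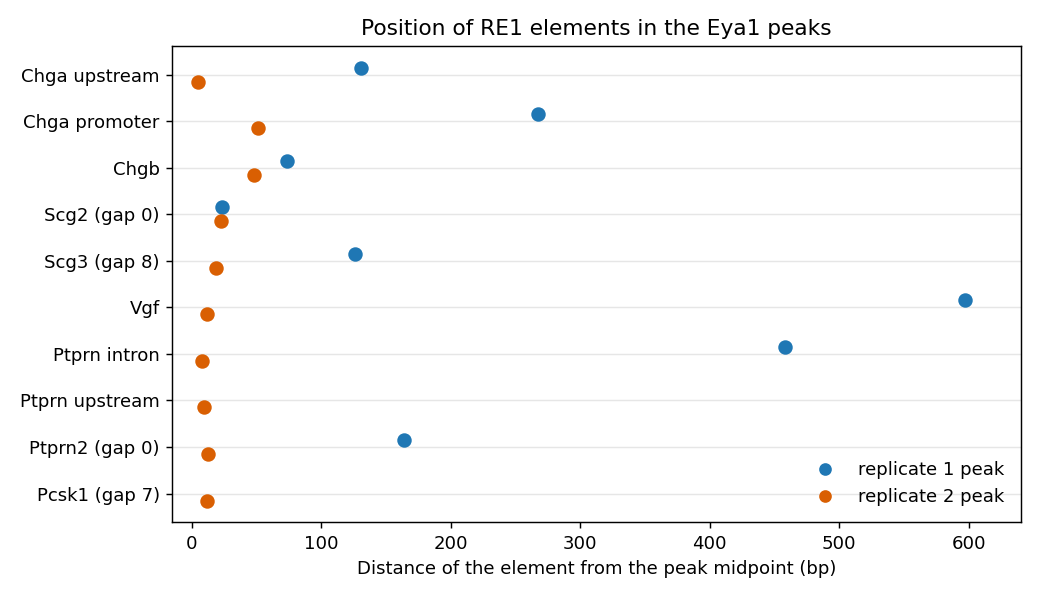
Distance in bp from the Eya1 peak midpoint to each covered RE1 element with at most 1 mismatch at the 10 genes, and to boxes at other gaps. Points are blue for replicate 1 and orange for replicate 2. Covered matches with 2 mismatches and the match at a gap of 19 are not drawn. Gap 0, 7 and 8 mark boxes at another spacing than 2 bases. All orange points lie within 51.0 bp, while the blue points reach 597.5 bp at Vgf, and the upstream Ptprn element and Pcsk1 have no blue point.

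A list of 47 other dense-core vesicle genes, covering prohormone processing, amine loading, neuropeptide cargo, vesicle biogenesis and exocytosis, was read in the same way. A promoter peak was present at 12 of the 47 in replicate 1, 10 in replicate 2, 16 in either and 6 in both. The shares of all protein-coding genes were 20.3%, 14.7%, 23.5% and 11.5%. An RE1 peak in either list was present at 14 of the 47, against 12.2% of all protein-coding genes. It was present in both lists at 4, against 3.81%, namely Bdnf, Crh, Syt7 and Rab3d. Bdnf encodes a neurotrophin released from dense-core vesicles, Crh encodes corticotropin-releasing hormone, Syt7 a calcium sensor of vesicle fusion and Rab3d a small GTPase of secretory granules. The peaks of Bdnf measured 468 and 189 bp, those of Crh 1259 and 163 bp and those of Syt7 667 and 261 bp in replicates 1 and 2, and each covered a mismatch-free element inside the gene. At Rab3d the peaks, 1117 and 592 bp, stood at -32.52 and -32.27 kb, were nearest to the TSS of Swsap1 and held elements with 1 mismatch. The windows of the 47 genes held 8 mismatch-free elements, of which 6 were under a peak. By role, an RE1 peak in either list was present at 2 of 9 prohormone processing genes, 1 of 4 amine genes, 5 of 15 neuropeptide genes, 2 of 8 biogenesis genes and 4 of 11 exocytosis genes.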

How the data were processed

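Peak lists of 2 Eya1 ChIP-seq replicates were analysed. The deposited files hold 3 columns, the chromosome, start and end of each peak, with no counts, signal or score. The authors aligned reads to mm10 with Bowtie and called peaks with MACS against input or IgG, and the processing notes also name HISAT2. The cutoff and control behind each list are not given in the sources used here. Starts were raised by 1 to count from 1. Genes and TSSs came from GENCODE M21, and sequences from RefSeq GRCm38. RE1 was searched on both strands with numpy 2.4.6 and pandas 2.3.3 in Python 3.11.15, and the search was tested on simulated sequence. An element counted as under a peak when wholly inside it. Windows were the gene plus 50 kb on either side. All 10 genes are named. Of the 47 others, those with an RE1 peak in both lists are named, and neighbors are the genes whose TSS lay nearest to a peak. The genes, lists and motif were chosen with earlier results of these data known. No test and no adjustment for multiple tests was made.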

Additional observations from a re-analysis of the deposited data

How the results depend on the processing

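Of 34 alternatives to the 6 reported results, 29 stayed within 1.5 times the reported count or within 1 SD of the width. Widths from one replicate alone are left out of that count, because the SD comes from the same 2 medians. The gene-body count fell from 8 to 0 when peaks within 1 kb of an own TSS were left out, since every gene-body peak lay there. The 5 genes with an RE1 peak became 3 with no mismatch, 10 with at most 3 mismatches and 8 with other gaps of 0 to 20 bases counted (a range widened after the loci had been seen, and 7 with gaps of 3 to 9). With at most 1 mismatch the count was 4, without Ptprn2. A match with at most 3 mismatches was held by 69.7% of all replicate 1 peaks and 34.4% of all replicate 2 peaks. The 6 covered elements became 3 with no mismatch. Leaving out one replicate gave 7 to 9 genes with a promoter peak, 7 to 8 with a gene-body peak, 8 to 9 within 50 kb, 5 to 5 with an RE1 peak, 5 to 6 covered elements, and median widths of 173.5 to 754 bp against a mean of 463.75 bp. No paired test was made, because no result comes from a test. Pcsk1 and Pcsk2 rest on replicate 2 alone, and the Pcsk1 peak would be lost at a limit of 500 bp, as would Pcsk2. Read depth, controls and calling thresholds could not be examined.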

Other observations

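Among the 47 other dense-core vesicle genes, 10 had an RE1 peak in a single list. Of all protein-coding genes, 9.62% had an RE1 peak in replicate 1, 6.43% in replicate 2 and 3.81% in both. The 10 genes are named here after their values were seen. The 6 with one in replicate 2 only were Pdyn, Sst, Pomc, Eipr1, Cadps and Syt4. Pdyn, Sst and Pomc are precursors of the peptides dynorphin, somatostatin and the melanocortins, Eipr1 acts in vesicle biogenesis, and Cadps and Syt4 act in vesicle priming and fusion. All 6 had an RE1 element with at most 1 mismatch under a peak. The 4 with one in replicate 1 only were Cpd, Pcsk5, Slc18a2 and Hid1, and 0 of the 4 had an element this close to the pattern under a peak, so that their RE1 peaks held matches with 2 mismatches. Replicate 1 peaks were wider, with a median of 1069 bp against 188 bp, while the share of peaks holding RE1 with at most 2 mismatches was 17.5% in replicate 1 and 17.4% in replicate 2. Among promoter-proximal peaks it was 14.7% and 7.05%, and among distal peaks 65.3% and 74.4%. The part of peak width in this difference was not tested.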
